A study of Oryza sativa with 8 samples.

Results

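Broad constitutive open domains are stretches of the rice genome that were covered by ATAC-seq peaks over 1000 bp or more and had a peak in every library of a cultivar. ATAC-seq maps open chromatin, the DNA that the Tn5 transposase can reach and cut. Within each cultivar the peaks of its 4 lists on chromosomes 1 to 12 were pooled, and peaks that overlapped or touched were merged into regions. Of 105171 merged regions in both cultivars, 3840 were at least 1000 bp wide and held a peak of all 4 lists. In Nip, 3126 of 49606 merged regions were such domains, and in 93-11 it was 714 of 55565. The domains were chosen by their merged width and by the presence of a peak in all 4 lists, so both are given as a description.

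The study compared Nipponbare (Nip, a japonica rice) with 93-11 (an indica rice), under normal conditions (Normal) and after heat stress (HS), to follow chromatin accessibility during heat. Each of the 4 groups (Nip Normal, Nip HS, 93-11 Normal and 93-11 HS) had 2 libraries, called biological replicates by the study, made from nuclei of the aerial parts of 3-week-old seedlings. All plants grew in culture solution with 10 h of light at 800 µmol m-2 s-1 and 14 h of dark. HS seedlings were held at 45 °C for 36 h at a humidity above 80% and at 60 to 80 µmol m-2 s-1 of light, and for Normal seedlings neither light nor humidity over that period is given in the sources used here. Heat therefore cannot be told apart from dim light and humidity. Aerial parts hold many cell types, and a longer peak in more cells cannot be told apart from a change in the mix of cells.

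Most open chromatin in plants is found as short sites, where transcription factors and the transcription machinery displace nucleosomes at promoters and other regulatory elements. A wide open stretch can arise where several such sites lie side by side, and a peak caller writes it as 1 wide peak or as several short peaks, depending on how deep the signal falls between them. Heat is known to change both nucleosome occupancy and the binding of heat shock factors in plant chromatin. The lists give a position and a value for each peak and no gene, and a gene annotation of their builds was not used here, so the domains are described by position and not by gene.

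The domains were the wide end of a continuous range. In Nip the median domain was 1209.5 bp wide, with quartiles of 1085 and 1414 bp and a maximum of 3073 bp, while in 93-11 it was 1158 bp wide, with quartiles of 1069 and 1311 bp and a maximum of 2895 bp. Over all regions with a peak in all 4 lists, the median stood at 641 bp for Nip and at 540 bp for 93-11. The domains made up 15.2% of those 20632 regions in Nip and 7.51% of those 9503 regions in 93-11, and they spanned 4.04 Mb and 0.878 Mb. Widths crowded toward the threshold, since 1522 Nip and 417 93-11 domains were under 1200 bp, while 99 and 12 reached 2000 bp. Of all merged regions of 1000 bp or more, 90.5% in Nip (of 3453) and 82.7% in 93-11 (of 863) had a peak in all 4 lists. Over merged regions of any width, 20632 of 49606 in Nip and 9503 of 55565 in 93-11 did. The width is that of the pooled peaks and a short peak is enough to count, so these shares do not mean that the breadth itself was shared by both conditions.

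At the threshold itself, members and non-members differed in width by 1 bp. In Nip, the domain at chromosome 1, 4165226 to 4166225, was exactly 1000 bp wide, with summed peak lengths of 755 and 693 bp in the Normal libraries (replicate 1, then 2) and 774 and 1000 bp in the HS libraries. The region at chromosome 2, 1193389 to 1194387, missed by 1 bp at 999 bp, with 388 and 512 bp in Normal and 785 and 825 bp in HS. In 93-11, the domain at chromosome 1, 26416723 to 26417722, was 1000 bp wide, with 710 and 621 bp in Normal and 450 and 887 bp in HS. The 999 bp region of 93-11 at chromosome 3, 30619545 to 30620543, held 715 and 919 bp in Normal and 219 and 295 bp in HS. Apart from 2 peaks in Normal replicate 1 of the last region, each was covered by 1 peak per list.

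Depth is unknown because the lists carry peaks and no reads. A background rate, recovered from the values of each list, stands in for it. It was read as the fragment pileup that many peaks of a list were scored against, an inference from the fit to its most frequent values. Single peaks may have been scored against another rate. Such a pileup rises with depth and with fragment length. It was 5.21 to 5.31 in the Nip Normal libraries and 6.79 to 6.85 in Nip HS, and it was 6.11 to 6.67 in 93-11 Normal and 4.41 to 4.66 in 93-11 HS. The libraries with the higher rate were thus the HS libraries in Nip and the Normal libraries in 93-11. The smallest gap between neighbouring peaks in a list was 3 bp more than its smallest peak in all 8 lists, at 153 to 166 bp in Nip and 129 to 133 bp in 93-11, so gaps shorter than that were not listed.

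Most domains were a single peak in each library. In Nip, 2523 and 2555 domains held 1 peak in Normal replicates 1 and 2, and 2768 and 2741 did so in HS replicates 1 and 2. In 93-11 the numbers were 538 and 585 in Normal and 503 and 492 in HS. Most of the rest held 2 peaks, namely 579 and 553 in Nip Normal, 348 and 377 in Nip HS, 160 and 121 in 93-11 Normal, and 193 and 209 in 93-11 HS. Domains with 3 or more peaks were rare, at 8 to 24 per library in Nip and 8 to 18 in 93-11, and no library had more than 4 peaks in a domain. Regions under 1000 bp held 1.003 to 1.02 peaks each in every library.

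With domains from all 4 lists, the mean number of peaks per domain was lower under HS in Nip and higher in 93-11. In Nip it was 1.20 and 1.19 in the Normal libraries and 1.12 and 1.13 in the HS libraries, with both HS libraries below both Normal ones. In 93-11 it was 1.27 and 1.19 in Normal and 1.32 and 1.33 in HS, with both HS libraries above, and here the Normal libraries were nearly as far apart as the groups. The difference of HS from Normal was -0.0729 in Nip (Normal SD 0.00882, HS SD 0.00566, n = 2 each) and 0.0945 in 93-11 (Normal SD 0.0545, HS SD 0.00594, n = 2 each). With 2 libraries against 2 the two-sided exact permutation test over the 6 assignments cannot go below p = 0.333, and both differences had that p. Closing all gaps under 166 bp in the Nip lists and under 133 bp in the 93-11 lists, which was tried after the lists had been seen, left differences of -0.0629 and 0.0875. Measured in the lists of the replicate number that was not used to choose the domains, the difference was smaller, at -0.0183 and -0.0609 in Nip and 0.0663 and 0.0144 in 93-11. With domains from the Normal lists alone it was -0.0185 in Nip and turned to -0.0527 in 93-11, and merging peaks up to 150 bp apart lowered it to 0.0524 in 93-11. The 93-11 difference was 0.190 without Normal replicate 1, 0.0983 without HS replicate 1 and 0.0811 without HS replicate 2, and in the last 2 cases the exact permutation p was 0.667. That in Nip was -0.110 without HS replicate 1 and -0.0648 without Normal replicate 1.

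The summed length of the peaks inside the domains rose under HS in Nip and fell in 93-11. In Nip it was 2.70 and 2.69 Mb in Normal and 3.32 and 3.32 Mb in HS. In 93-11 it was 0.636 and 0.660 Mb in Normal and 0.480 and 0.488 Mb in HS. The groups did not overlap in either cultivar, and in both the difference was many times the spread between replicates. The change was 23.2% in Nip, a log2 difference of 0.30 (SD of the log2 values 0.0054 in Normal and 0.00012 in HS, n = 2 each), and -25.3% in 93-11, a log2 difference of -0.42 (SD 0.038 and 0.018, n = 2 each). Each had an exact permutation p of 0.333, also after Benjamini-Hochberg adjustment over the 12 comparisons of 6 measures in both cultivars. The HS effect in 93-11 minus that in Nip was -0.72 on the log2 scale, and 2 of the 36 assignments that permute the condition within each cultivar gave a difference as large (exact two-sided p = 0.0556, the smallest possible, and 0.0556 adjusted over 6 measures). That difference was -0.81 with domains from the Normal lists and -0.33 with domains from the HS lists, each with an exact permutation p of 0.333. The summed peaks also set the merged width that chose the domains, so the p values of length are a description and no support.

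**Figure D1:**
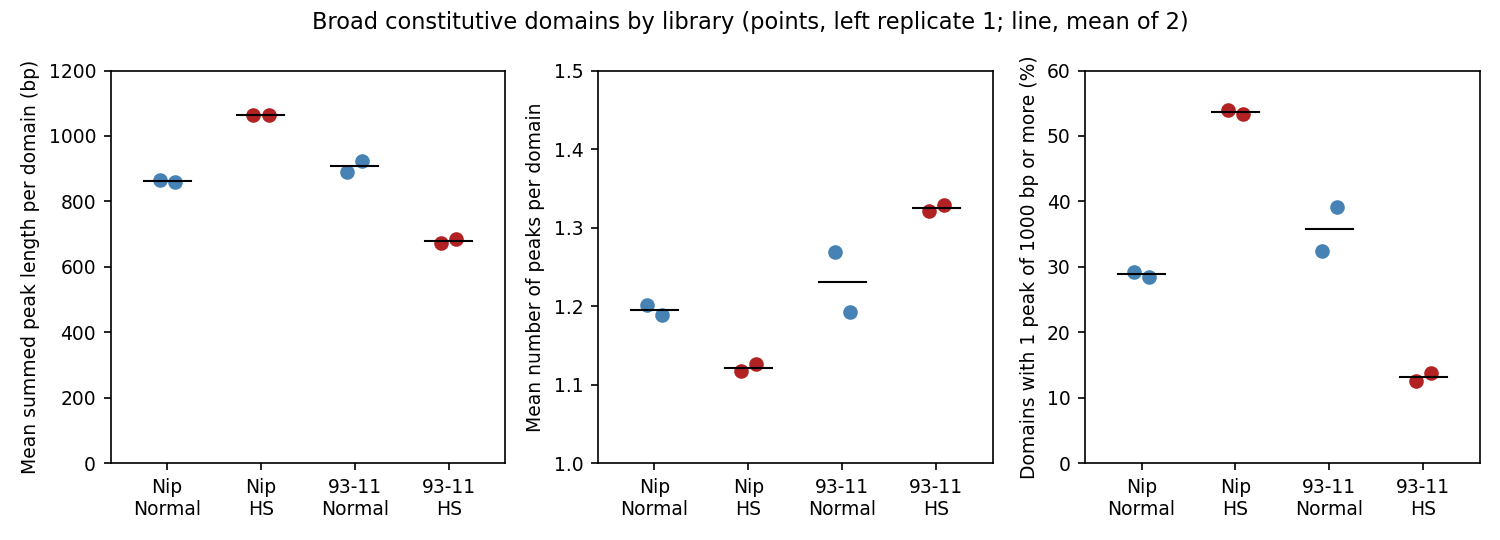
Each point is 1 library and each black line the mean of its group, with replicate 1 on the left; the panels plot the mean summed peak length per domain (bp), the mean number of peaks per domain (axis from 1, the least a domain can have) and the share of domains with a peak of 1000 bp or more (%). Under HS, the Nip domains went from 865 and 860 bp to 1063 and 1063 bp, and those of 93-11 from 891 and 925 bp to 672 and 684 bp, while peak numbers moved the other way.

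The same direction held for all peaks of the lists, so it was not particular to the domains. Over all peaks on the 12 chromosomes the log2 difference in summed length was 0.45 in Nip and -0.59 in 93-11. Over the regions under 1000 bp with a peak in all 4 lists it was 0.23 and -0.31. The length followed the background rate in both cultivars, with the longer peaks in the libraries of higher rate, and its part in the change was not tested. With only the 15000 strongest peaks of each list, which equalises the number of peaks, the domains differed by 0.24 in Nip and -0.45 in 93-11. With only peaks at 4 or more times the background they differed by 0.27 and -0.43. Both filters keep the edges of each peak as listed, so they cannot remove an effect of the background rate on peak length.

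The lists that chose the domains set the size of this difference and, at the extremes, its sign. Domains of 1000 bp or more built from the 2 Normal lists alone numbered 1463 in Nip and 598 in 93-11, and their log2 differences were -0.01 and -0.83. Domains built from the 2 HS lists alone numbered 2676 and 208, with 0.52 and 0.19. Both choices favour the condition that chose the regions. When the regions came from the lists of 1 replicate number, a Normal and an HS list each, and the length was measured in the other 2 lists, the log2 difference was 0.31 and 0.29 in Nip and -0.38 and -0.39 in 93-11. These lengths were not used in choosing the regions, and they lay close to the values from all 4 lists. More regions could still enter through the condition with the longer peaks, which the other replicate shares. The closeness therefore concerns differences between replicates only, and is no support for the size or sign of the difference.

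**Figure D2:**
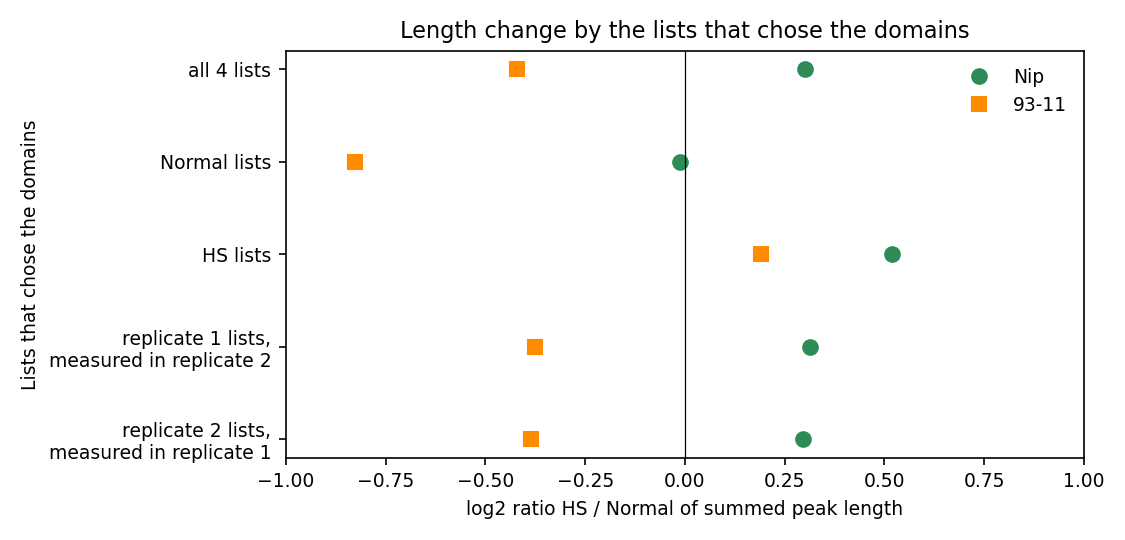
Points show the log2 ratio of HS to Normal summed peak length inside domains (x axis), for Nip (circles) and 93-11 (squares), by the lists from which the domains were built (y axis). Values from all lists and from replicates not used in the choice lay at 0.29 to 0.31 in Nip and -0.42 to -0.38 in 93-11, whereas choosing on 1 condition moved them to -0.01 and 0.52 in Nip and to -0.83 and 0.19 in 93-11.

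Among the domains from all 4 lists, those that extended under HS prevailed in Nip and those that shrank in 93-11, as among all regions. A domain was called longer when its summed peak length in both HS libraries exceeded that in both Normal libraries, and shorter in the opposite case. In Nip, 1648 domains (52.7%) were longer, beside 43.8% of all regions with a peak in all 4 lists, and 346 (11.1%) were shorter, beside 9.71%. In 93-11, 74 domains (10.4%) were longer, beside 8.87% of all such regions, and 392 (54.9%) were shorter, beside 47.6%. The remaining 1132 Nip and 248 93-11 domains had overlapping groups. The shares of the domains were thus a little above those of all regions, in both directions and in both cultivars. They depended on the lists that chose the regions. Regions from the Normal lists gave 28.8% longer and 23.65% shorter in Nip. Those from the HS lists gave 37.0% longer and 20.7% shorter in 93-11, the reverse order. The opposite choices gave 67.3% longer and 3.81% shorter in Nip, and 2.34% longer and 73.9% shorter in 93-11.

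**Figure D3:**
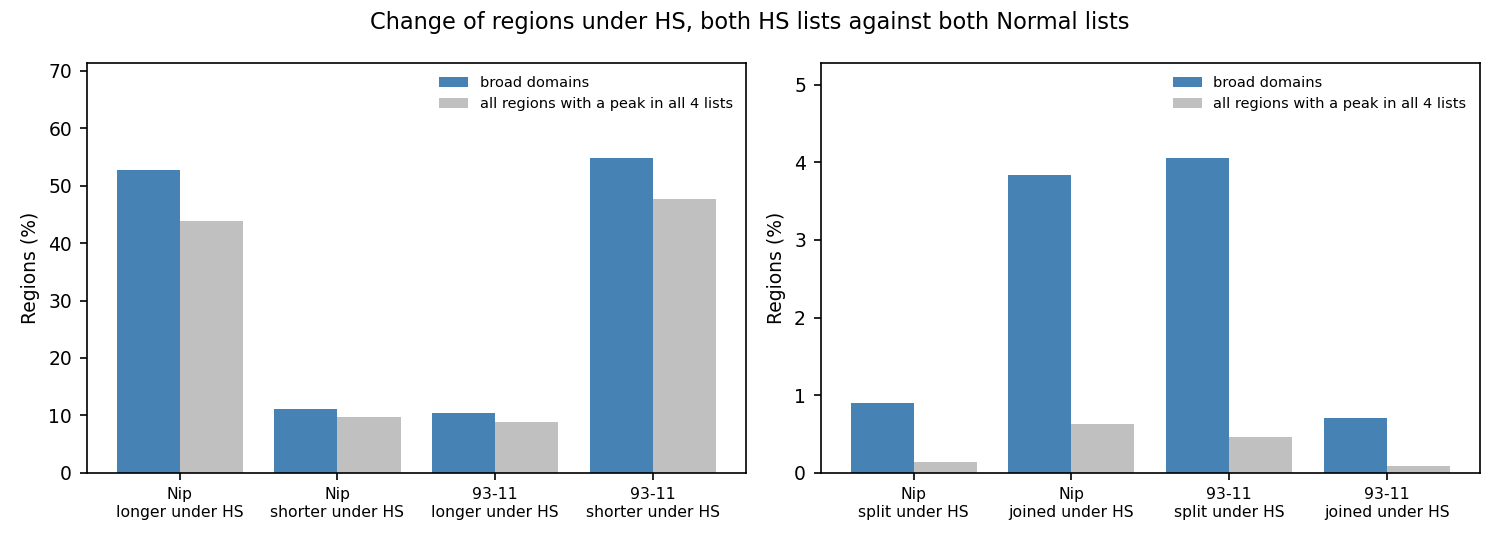
Bars give the percent of regions called, for the broad domains and for all regions with a peak in all 4 lists: longer or shorter under HS on the left, split or joined on the right, with different scales. Longer regions prevailed in Nip (52.7% of domains, 43.8% of all) and shorter ones in 93-11 (54.9% and 47.6%), while splits and joins reached at most 4.06% of domains.

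For single domains the change between conditions had a larger median than the difference between replicates, although the distributions overlapped. The same lengths set the merged width that chose the domains, and a domain could enter through the condition with the longer peaks. The comparison is therefore a description and no support. The median absolute difference between condition means was 232 bp in Nip, against 139 bp between the Normal replicates and 123 bp between the HS replicates of the same domain. In 93-11 it was 314 bp, against 192.5 and 147 bp. The signed change had a median of 177 bp in Nip, with quartiles of 2.13 and 402 bp, and of -251 bp in 93-11, with quartiles of -453 and -29.9 bp. Domains that moved against the prevailing direction were thus present in both cultivars.

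**Figure D4:**
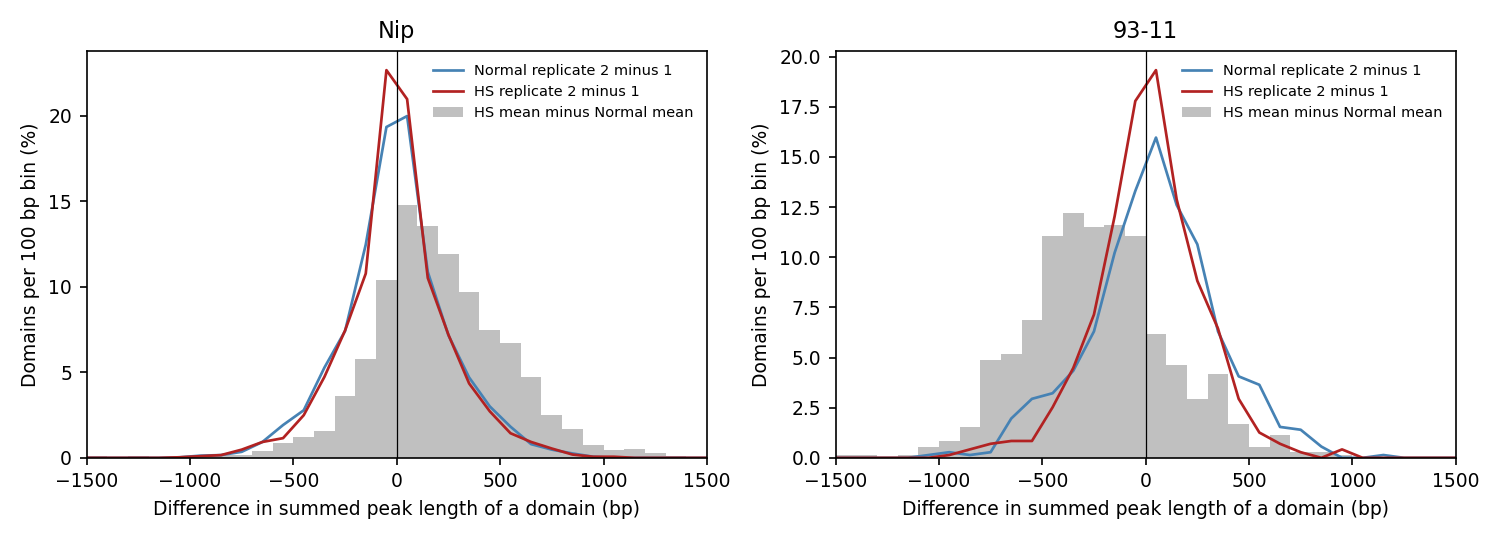
Grey bars show the HS mean minus the Normal mean of the summed peak length of each domain in 100 bp bins (x axis, bp; y axis, percent of domains), and lines show replicate 2 minus replicate 1 within Normal and within HS. The replicate differences centred near 0, whereas the condition difference had a median of 177 bp in Nip and -251 bp in 93-11, and the distributions overlapped. The same lengths set the merged width that chose the domains.

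Most of the length change was counted at the outer ends of the domains, which is partly set by the measure. The span from the outermost start to the outermost end of a library's peaks grew by 172 bp per domain in Nip, from 936 and 926 bp in Normal to 1103 and 1105 bp in HS. In 93-11 the span was 970 and 978 bp in Normal and 778 and 792 bp in HS, a difference of -189 bp. The sum of the gaps between peaks inside that span was 71.7 and 65.8 bp per domain in Nip Normal and 39.8 and 41.8 bp in Nip HS, and 79.2 and 53.6 bp in 93-11 Normal and 106 and 108 bp in 93-11 HS. Ends accounted for 86.1% of the mean length change of 200 bp in Nip and for 82.4% of that of -230 bp in 93-11, and gaps for 13.9% and 17.6%. Gap sums, like peak numbers, did not overlap between the groups.

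The prevailing move was more often seen at a single end than at both. In Nip, 546 domains (17.5%) had the outermost peak edges of both HS libraries outside those of both Normal libraries at both ends, beside 14.6% of all regions with a peak in all 4 lists, and 1201 (38.4%, beside 37.2%) at 1 end with the other end overlapping. Inward moves were seen at both ends in 52 Nip domains (1.66%, beside 1.57%) and at 1 end in 339 (10.8%, beside 10.6%). In 93-11, 128 domains (17.9%, beside 15.4%) had moved inward at both ends and 262 (36.7%, beside 37.4%) at 1 end, while 14 (1.96%, beside 1.49%) had moved outward at both ends and 92 (12.9%, beside 10.7%) at 1 end. These shares lay near those of all regions. Both ends overlapped in 695 Nip (22.2%, beside 29.7%) and 163 93-11 domains (22.8%, beside 29.2%). A further 293 Nip domains (9.37%, beside 6.33%) and 55 93-11 domains (7.70%, beside 5.86%) moved outward at 1 end and inward at the other. The median outward shift was 46 bp at the end of lower coordinate and 47 bp at the other in Nip, and -54.8 and -65 bp in 93-11, so the shift was similar on both sides.

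Splitting into several peaks was rare in both cultivars. A domain was called split under HS when a peak of each Normal library was overlapped by at least 2 peaks of each HS library, and joined under HS in the opposite case. In Nip, 28 domains (0.896%) were split and 120 (3.84%) were joined, beside 0.136% and 0.63% of all regions with a peak in all 4 lists. In 93-11, 29 domains (4.06%) were split and 5 (0.700%) were joined, beside 0.463% and 0.0842%. Such breaks need room for a gap, most of all regions are narrower, and the part of width in the lower shares was not tested. Within the domains from all 4 lists, joins outnumbered splits in Nip and splits outnumbered joins in 93-11. This order depended on the lists that chose the regions. In Nip, regions from the Normal lists gave 1.85% split and 0.410% joined. In 93-11, regions from the HS lists gave 0% split and 2.40% joined. Nip regions from the HS lists and 93-11 regions from the Normal lists kept the order.

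Counting peaks alone in the domains from all 4 lists gave the same direction. It uses the same peaks as the split and joined calls and is no separate support. Both HS libraries held more peaks than both Normal libraries in 45 Nip domains (1.44%, beside 0.228% of all regions) and fewer in 137 (4.38%, beside 0.717%). In 93-11 the numbers were 50 (7.003%, beside 0.842%) and 17 (2.38%, beside 0.284%). The joined Nip domains had a median width of 1468.5 bp, and all gaps of their Normal lists, closed under HS or not, had a median of 324 bp. The split 93-11 domains had a median width of 1282 bp, and all gaps of their HS lists, new or not, had a median of 220 bp.

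How often a break inside a domain recurred in the other library of its condition differed between conditions. In Nip, 1968 domains (63.0%) held 1 peak in every list and 21 held 2 or more in every list. In 93-11 this was 286 (40.1%) and 11. Of the gaps between the peaks of a Nip Normal library, 31.9% to 34.4% were covered by a single peak of the other Normal library and 65.9% to 69.9% by a single peak of an HS library. Gaps of a Nip HS library were covered in 63.1% to 63.9% of cases by the other HS library and in 33.1% to 38.0% by a Normal library. A gap of a Normal library overlapped a gap of the other Normal library in 42.8% and 46.0% of cases, and an HS gap one of the other HS library in 28.0% and 26.2%. An HS gap in Nip was thus more often covered by the other library of its condition than a Normal gap was.

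In 93-11 the roles of the conditions were exchanged. Gaps of a Normal library were covered by a single peak of the other Normal library in 54.7% to 66.7% of cases and by an HS library in 26.6% to 37.2%. Gaps of an HS library were covered by the other HS library in 29.3% to 30.2% and by a Normal library in 48.5% to 63.4%. A gap recurred in the other library of its condition in 18.2% and 24.1% of cases in Normal and in 42.4% and 40.9% in HS. Recurrence was thus lowest in Nip HS and 93-11 Normal, the conditions with fewer gaps. Since a domain is an unbroken stretch of the pooled peaks, every gap of a list is covered by the other 3 lists together, and only the list that covers it is informative. The gaps had medians of 287 to 313 bp in the Nip libraries and 230 to 270 bp in the 93-11 libraries.

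The share of domains with a peak that was itself broad also differed between the groups. A single peak of 1000 bp or more lay in 29.2% and 28.5% of the Nip domains in Normal and in 54.0% and 53.4% in HS. In 93-11 it lay in 32.5% and 39.2% of the domains in Normal and in 12.6% and 13.7% in HS. The difference was 24.8 percentage points in Nip and -22.7 in 93-11. It is a description with no test, because the same 1000 bp chose the domains and more of them could enter through the condition with the longer peaks, as 2676 regions from the HS lists alone against 1463 from the Normal lists alone did in Nip. In Nip, 491 domains (15.7%) had such a peak in both HS lists and in neither Normal list, and 73 (2.34%) the reverse. In 93-11, 14 (1.96%) and 72 (10.1%) did. A region under 1000 bp cannot hold such a peak, so narrower regions give no share to set beside these counts. The counts therefore describe the domains only and do not show that the domains differ from other regions.

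Many domains reached 1000 bp only by pooling. A peak of 1000 bp or more was present in every list for 389 Nip domains (12.4%) and 24 93-11 domains (3.36%). No list held such a peak in 563 Nip domains (18.01%) and 267 93-11 domains (37.4%), where shorter peaks of different libraries, offset or separate, added up to the width. The share of a domain covered by the peaks of a library had medians of 70.1% and 69.3% in Nip Normal, 87.3% and 87.4% in Nip HS, 77.0% and 82.7% in 93-11 Normal, and 53.0% and 55.3% in 93-11 HS. Coverage was thus highest in Nip HS and lowest in 93-11 HS.

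Wider domains held more peaks. From the Nip domains under 1200 bp to those of 2000 bp or more, the mean number of peaks went from 1.10 to 1.69 in Normal and from 1.05 to 1.49 in HS. Over the same classes joined domains went from 1.05% to 19.2% and split domains from 0.0657% to 5.05%, while the share called longer under HS moved less, from 50.1% to 61.6%. In 93-11 the corresponding peak numbers went from 1.15 to 1.92 in Normal and from 1.22 to 1.83 in HS, and the share called shorter was 54.9% in the narrowest class and 9 of 12 among the widest. Split 93-11 domains went from 2.16% to 3 of 12, and joined ones numbered 2, 1, 2 and 0 from the narrowest class to the widest, with no rise. More room for gaps comes with width, and how far that sets the peak number was not tested.

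The domains held strong peaks. The rule used width and presence in all 4 lists and not the value itself, and how far these bring strong peaks with them was not tested. The deposited value of a peak was read as −log10 p, and because that value rises with depth, the strongest peak of each domain was ranked within its own list. Its median percentile was 73.3 and 72.2 in Nip Normal, 78.4 and 78.4 in Nip HS, 83.8 and 84.3 in 93-11 Normal, and 82.0 and 79.3 in 93-11 HS. For regions under 1000 bp with a peak in all 4 lists it was 62.7 to 69.2 in Nip and 76.7 to 82.3 in 93-11. The domains ranked higher in every library, by a wider margin in Nip than in 93-11. The strongest peak was taken from more peaks in a domain than in a narrower region, and the part of this in the margin was not tested. Domains took up 9.58% to 12.6% of the peaks but 19.2% to 21.8% of the peak length of a Nip list, and 2.78% to 4.18% of the peaks and 6.34% to 7.53% of the length of a 93-11 list.

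Stronger domains were more often a single peak. When the domains of a cultivar were divided into 3 equal groups by the mean percentile of their strongest peak, 1 peak in every list was found in 49.9% of the weakest, 61.996% of the middle and 77.0% of the strongest Nip domains. In 93-11 it was 26.1%, 36.6% and 57.6%. The median length change under HS fell from 288 bp in the weakest Nip group to 92.8 bp in the strongest, although 47.8% of the strongest were still longer under HS. In 93-11 the share of shorter domains was 39.5% in the weakest group, 61.3% in the middle and 63.9% in the strongest. The median length change there was -189.25, -315 and -243 bp in the same order, so it was largest in the middle group. Median widths of the groups were 1200.5 to 1223.5 bp in Nip and 1152.5 to 1164 bp in 93-11, so the groups differed little in width.

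Single domains illustrate each of these behaviours. The widest Nip domain lies at chromosome 1, 25870311 to 25873383 (3073 bp). Its summed peak length was 3073 and 2779 bp in Normal, as 1 peak each, and 1583 and 1308 bp in HS, as 3 and 2 peaks, so it shrank and split against the trend of its cultivar. The Nip domain at chromosome 3, 9273585 to 9276482 (2898 bp), went the other way, from 1168 and 1694 bp in 1 and 2 peaks to 2877 and 2897 bp in single peaks. A Nip domain of the same width at chromosome 1, 34168976 to 34171873, had overlapping lengths, 2207 and 1594 bp in Normal and 2140 and 2414 bp in HS, while its peaks went from 3 and 2 to 2 and 1.

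The largest extensions in Nip started from short Normal peaks. At chromosome 1, 36675798 to 36678014, a Nip domain of 2217 bp held 197 and 228 bp in Normal and 1739 and 2217 bp in HS. Its Normal peaks were weak, with −log10 p of 4.18 and 3.75, whereas those in HS had 15.7 and 18.4. At chromosome 2, 26267811 to 26269718, the Normal peaks ranked high in their lists, with −log10 p of 50.3 and 55.7, and still covered only 629 and 620 of the 1908 bp, against 1908 and 1870 bp in HS. Another at chromosome 1, 19560820 to 19562851, went from 591 and 476 bp to 1856 and 1989 bp. All of these were single peaks in all 4 lists, so they extended without joining.

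Shortening in Nip was less common, and the largest was -1480.5 bp between condition means, beside 1765.5 bp for the largest extension. The domain at chromosome 12, 11362599 to 11365473 (2875 bp), held 2632 and 2738 bp in Normal and 1245 and 1170 bp in HS. That at chromosome 1, 178693 to 180960, held 2234 and 2239 bp in Normal and 919 and 593 bp in HS. In both, the difference between the conditions exceeded that between the replicates of either condition.

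In 93-11 the widest domain was also the one that shrank most. At chromosome 2, 31506418 to 31509312 (2895 bp), it held 2239 and 2555 bp in 2 peaks each in Normal and a single short peak of 174 and 202 bp in HS. The domain at chromosome 9, 11482992 to 11485421 (2430 bp), was 1 peak of 2338 and 2326 bp in Normal and 2 peaks summing to 820 and 1134 bp in HS, a clear split. At chromosome 1, 25022897 to 25025036, the length was 2064 and 1859 bp in Normal and 523 and 556 bp in HS.

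A few 93-11 domains extended strongly. At chromosome 3, 36826928 to 36829159 (2232 bp), single peaks covered 361 and 418 bp in Normal and 2232 and 2172 bp in HS. Another on the same chromosome, 7656333 to 7657707, went from 151 and 343 bp to 1110 and 1271 bp. A further one there, 5196123 to 5197737, went from 505 and 498 bp to 1252 and 1286 bp. The 3 largest extensions in 93-11 by the naming rule thus all lay on chromosome 3, which also held 105 of the 714 domains.

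The domains with the most peaks were broken in most lists. In 93-11 the domain at chromosome 2, 30276088 to 30278901 (2814 bp), had 3 and 2 peaks in Normal and 3 and 3 in HS, with lengths of 1736 and 1769 bp and of 1283 and 1532 bp. In Nip the domain at chromosome 2, 21359100 to 21361576 (2477 bp), had 3 and 3 peaks in Normal and 2 and 2 in HS, and its length went from 1155 and 1359 bp to 1928 and 2111 bp. The Nip domain at chromosome 5, 29597135 to 29599525, had 3 and 2 peaks in both conditions, with 1381 and 1695 bp in Normal and 1331 and 1716 bp in HS, so its lengths overlapped. A 93-11 domain at chromosome 12, 10312279 to 10314414 (2136 bp), had 3 and 1 peaks in Normal and 3 and 3 in HS, with 1628 and 1753 bp in Normal and 1059 and 1251 bp in HS, and was called split.

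Along the chromosomes, the domains were spread over all 12 in both cultivars. Their density ranged from 4.90 per Mb on chromosome 11 to 11.7 on chromosome 1 in Nip, and from 0.882 on chromosome 11 to 2.69 on chromosome 3 in 93-11, with the length of a chromosome taken as the end of its last peak. Chromosome 11 was thus the poorest in both. As a share of the regions with a peak in all 4 lists, domains varied less, from 12.5% to 16.8% in Nip and from 5.47% to 9.45% in 93-11. Chromosomes with many domains were thus mainly those with many open regions.

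The direction of the HS change was the same on every chromosome of a cultivar. The log2 difference in summed length was 0.22 to 0.35 on the 12 Nip chromosomes and -0.61 to -0.31 on the 12 93-11 chromosomes. On each chromosome, and in both cultivars, the HS libraries were separated from the Normal ones in the same direction. The chromosomes share their libraries, so they are not replicates of the condition.

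Domains were scarce in the interior of the chromosomes, as other open regions were. When each chromosome was divided into 10 equal parts, part 4 held the fewest Nip domains, 5.31%, and part 9 the most, 15.6%. In 93-11 part 5 held 6.58% and part 8 held 14.6%. The outer 20% at either end held 49.5% of Nip domains against 48.4% of the regions under 1000 bp with a peak in all 4 lists, and 45.2% against 50.6% in 93-11. The middle 20% held 12.8% of domains against 14.6% in Nip and 13.9% against 12.7% in 93-11. Domains thus followed the other regions closely in Nip and lay somewhat further inside in 93-11.

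**Figure D5:**
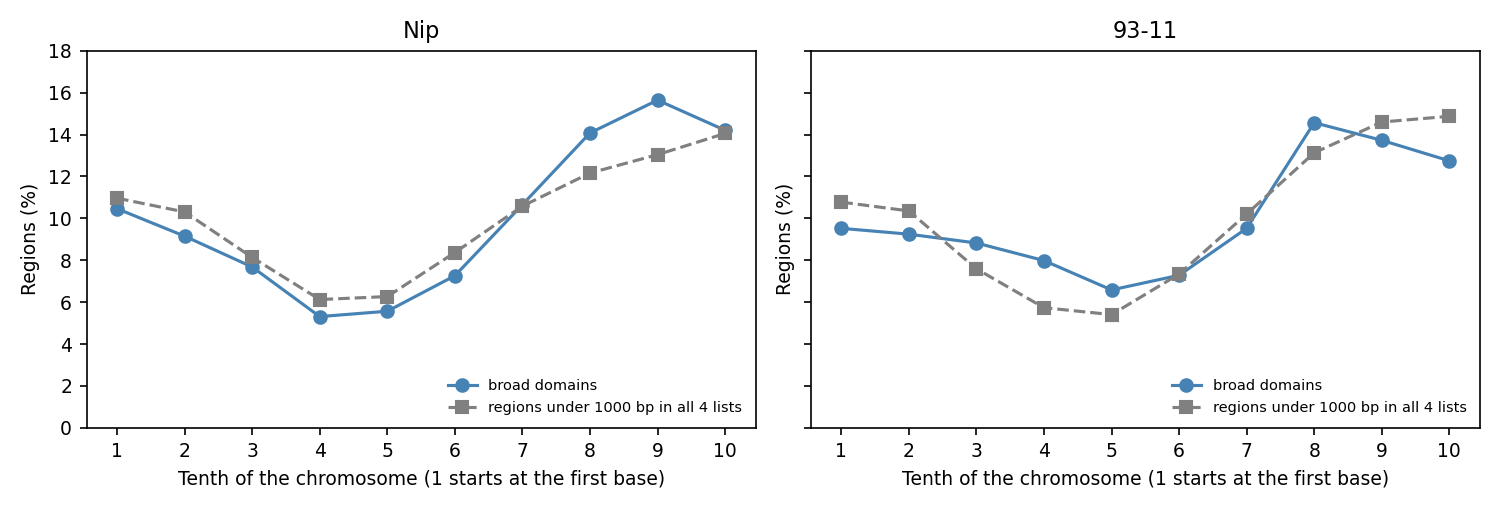
Percent of regions (y axis) in each of 10 equal parts of the chromosome (x axis, summed over 12 chromosomes, chromosome length taken as the end of its last peak), for broad domains (circles) and regions under 1000 bp with a peak in all 4 lists (squares). Both kinds were lowest in part 4 or 5 and high in parts 8 to 10, with at most 15.6% in any part.

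Domains seldom lay side by side. The median distance from a domain to the next was 60317 bp in Nip and 293209 bp in 93-11, and 126 of 3114 distances in Nip and 5 of 702 in 93-11 were under 5000 bp. The median distance to the nearest merged region of any kind was 2245 bp in Nip and 2333 bp in 93-11, and 14.4% and 20.6% of domains had such a neighbour within 500 bp. For regions under 1000 bp these shares were 13.4% and 17.5%. The longest stretch of a chromosome without a domain was 0.775 to 1.61 Mb in Nip and 2.20 to 6.30 Mb in 93-11. These stretches were not empty, since they held 23 to 54 narrower regions with a peak in all 4 Nip lists and 24 to 110 in 93-11.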

How the data were processed

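The study profiled 8 ATAC-seq libraries of nuclei from seedling aerial parts. Per the study's methods, the authors used Cutadapt for trimming and Bowtie2 for mapping, removed low-quality, organelle and duplicate reads, and called narrow peaks per library with MACS2 at an adjusted p of 0.05. The submitters' processing notes name BWA 0.7.10-r789, SAMtools 0.1.19, deepTools 2.0 and MACS2 2.1.1 instead, so which aligner made the files is not settled. The genome builds and any shift for the Tn5 offset are not given in the sources used here. The authors deposited 1 list per library with sequence, start, end, name and a value without a header, which was read as an unadjusted −log10 p from its match to Poisson tails. The rate of those tails, fitted to the 12 most frequent values, served as the background rate, since depth is unknown. Coordinates are counted from 1 on each cultivar's own sequence, and positions were never compared between cultivars.

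From the lists, peaks were pooled and merged as the report states, and peak number, summed length, span, gaps and rank were computed per domain and library in Python 3.11.15 with numpy 2.4.6, pandas 2.3.3 and scipy 1.17.1; figures used matplotlib 3.10.9. Groups were taken from the sample titles. Group means were compared with exact two-sided permutation tests, and scripts were tested on simulated data. Named domains per cultivar were the 3 widest, the 3 with the most peaks, the 3 with the largest excess of the lower HS over the higher Normal length and the 3 with the reverse, and the 3 on each side of the threshold; 1 or more of each are printed. The members, lists and tests were chosen with earlier results of these data known. Alternatives were the width minimum, the joining gap, stricter peaks, regions from other lists, a minimum difference, leaving out each library and a replicate block.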

Additional observations from a re-analysis of the deposited data

Results flagged for a closer look

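With domains from all 4 lists, the HS effect ran in opposite directions in the cultivars for each of the 6 measures. The effect in 93-11 minus that in Nip was -0.72 for log2 summed peak length, 0.167 peaks per domain, -362 bp of mean span, 68.4 bp of mean gap, -47.5 percentage points of domains with a peak of 1000 bp or more, and -9.08 for the median percentile of the strongest peak. Condition labels were permuted inside each cultivar to test the differences, and each had the smallest exact p that 36 assignments allow, 0.0556, which does not pass 0.05. For the share of broad peaks the rule used the same 1000 bp. Summed length, span, gaps and peak numbers were taken from the same peaks whose merged width chose the domains. The p of each of these measures is therefore no support. The opposite directions of length depended on the lists that chose the domains. With regions from the Normal lists both length differences were negative (-0.013 and -0.83), and with regions from the HS lists both were positive (0.52 and 0.19), with cross-cultivar differences of -0.81 and -0.33 and an exact permutation p of 0.333 each. The background rate ran the same way as the lengths (higher under HS in Nip and lower under HS in 93-11), and its part in these differences was not tested.

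Regions that met the same width and list requirements also lay on sequences other than the 12 chromosomes, which the comparisons did not use. There were 24 in Nip, 12.1% of 199 regions with a peak in all 4 lists on 11 sequences, and 44 in 93-11, 17.1% of 257 on 10 sequences.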

How the results depend on the processing

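Depth is unknown and each group had 2 libraries, so no exact p could pass 0.05, and a gap shorter than the smallest gap of a list could not be seen. In Nip the log2 difference in summed length reversed to -0.013 with regions from the Normal lists, and in 93-11 it reversed to 0.19 with regions from the HS lists, while the difference in peak number reversed to -0.0527 with regions from the Normal lists. Both length differences kept their direction under the other alternatives run. Merging only overlapping peaks left 3126 and 714 domains. Merging peaks up to 150 bp apart gave 3296 and 926 and lowered the 93-11 difference in peak number from 0.0945 to 0.0524, with the directions kept. Setting the minimum width to 1500 bp left 573 and 76 domains in Nip and 93-11, with 60.03% and 15.8% longer, 3.14% and 6.58% split, 9.60% and 2.63% joined, and 52.5% of Nip domains in the outer 20% at either end. The 15000 strongest peaks gave 1895 Nip domains with 49.97% longer, 0.158% split and 1.32% joined, and in 93-11 61.1% shorter and 0.204% joined. Peaks at 4 times the background gave 411 domains in 93-11, with 7.79% longer and 61.1% shorter, and in Nip 50.6% longer, 0.556% split and 2.11% joined. A minimum difference of 100 bp left 36.8% longer and 5.66% shorter in Nip, and 7.70% and 42.0% in 93-11.

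Regions from the Normal lists gave 28.8% longer, 23.65% shorter, 1.85% split and 0.410% joined in Nip, and 2.34% longer, 73.9% shorter and 0% joined in 93-11. Regions from the HS lists gave 67.3% longer, 3.81% shorter and 0% split in Nip, and 37.0% longer, 20.7% shorter, 0% split and 2.40% joined in 93-11. The order of split and joined thus reversed in Nip with the Normal lists and in 93-11 with the HS lists. That of longer and shorter reversed in 93-11 with the HS lists. With regions from replicate 1 measured in replicate 2, and the reverse, the Nip shares were 74.7% and 72.5% longer, 25.1% and 27.3% shorter, 3.23% and 3.52% split, and 11.0% and 12.6% joined. The 93-11 shares were 26.8% and 26.6% longer, 72.4% and 73.1% shorter, 15.9% and 12.9% split, and 5.84% and 4.32% joined. Fewer libraries must separate for these calls, as when a library is left out, but the regions differ as well. The parts of both in the higher shares cannot be told apart.

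Leaving out each library in turn gave 2542 to 2944 domains in Nip and 465 to 660 in 93-11, the lowest without 93-11 Normal replicate 2. The log2 length difference was 0.28 to 0.33 and -0.51 to -0.34. Nip shares were 61.0% to 66.99% longer, 17.5% to 19.2% shorter, 1.87% to 2.75% split and 7.36% to 9.78% joined. Those in 93-11 were 13.3% to 22.2% longer, 61.9% to 70.8% shorter, 9.25% to 12.2% split and 2.42% to 4.73% joined. The cause of these and the other shifts was not tested.

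Replicate numbers were not stated to mark a shared batch, and deviations of same-numbered libraries from their group means over domains correlated by 0.00856 in Nip and 0.0466 in 93-11. With the replicate number as a block, the log2 differences stayed 0.30 and -0.42, with the smallest exact p that this pairing allows, 0.5.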

Other observations

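The domains with the strongest peaks were chosen after their values were seen, and 3 are given as values only. In 93-11 the domain at chromosome 4, 13839096 to 13840233 (1138 bp), had a −log10 p of 1882 and 1970 in Normal and 2249 and 2200 in HS, and lengths of 1130, 1133, 993 and 1135 bp in the same order. The domain at chromosome 10, 13556 to 14796 of 93-11, followed with 526 and 501 in Normal and 330 and 385 in HS, and lengths of 1126, 1236, 1078 and 1102 bp. A Nip domain with some of the strongest peaks, at chromosome 12, 10957397 to 10958432, had 247 and 250.1 in Normal and 214 and 210.2 in HS, with lengths of 915, 884, 891 and 1026 bp.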
